A study of Mus musculus with 18 samples.

Results

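The telomere-proximal ends described here are the last 5 Mb covered by probes on mouse chromosomes 1 to 9, 12 to 15, 17 and 18, that is, all probes within 5 Mb of the highest probe start of each chromosome. These 15 ends hold 11228 of the 384942 probes on the array (2.92%), with 617 probes on chromosome 2 to 841 on chromosome 1. They were chosen by position alone and set against the other 290959 probes of the same 15 chromosomes, called here the rest. Counted in 5-Mb windows from the last probe, with chromosome Y left out, the ends are 15 of 517 windows, and the rest is 390 windows.

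The study measured circular chromosome conformation capture (4C) on tiling arrays, in which DNA ligated to a bait after crosslinking and HindIII digestion is amplified, labelled with Cy5 and hybridised against Cy3-labelled genomic DNA of the corresponding cells. The baits were Ifng, the interferon gamma gene on chromosome 10, and Il4, the interleukin 4 gene on chromosome 11, so every end studied here contacts its bait in trans, from another chromosome. The labels give no treatment and name no strain, age or Cre line, nor how the cells were polarised. The Ifng groups were 3T3-L1 cells (an embryonic fibroblast line that can be turned into fat cells), Stat4KO Th1 cells (T helper 1 cells without STAT4), wild-type Th1 cells, Th2 cells and naïve CD4 T cells. For the Il4 bait they were Stat6KO Th2 cells (T helper 2 cells without STAT6), wild-type Th2 cells, Th1 cells and naïve CD4 T cells. Each of the 9 groups had 2 arrays, which gives 10 Ifng arrays and 8 Il4 arrays. The design text speaks of individual biological replicates and 1 array of a pool of 2 replicates without saying which array that is, and no label ties an array to an animal or a culture, so every p-value below measures the spread between these arrays. STAT4 and STAT6 are the transcription factors through which interleukin 12 and interleukin 4 drive Th1 and Th2 differentiation.

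Mouse autosomes carry the centromere at one tip, so the low coordinates begin beside the centromere and the high coordinates finish at the telomere of the single long arm. Within an interphase nucleus each chromosome keeps a territory of its own, and gene-rich, transcribed segments meet segments of other chromosomes more often than gene-poor, lamina-bound ones do. Telomere-proximal DNA in mammals is often gene-rich, though not on every chromosome, and cytogenetic Giemsa bands separate gene-rich light bands from darker, mostly gene-poorer ones.

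Probe positions matched the mm8 build. In mm8, 0 of 21 chromosomes had a probe beyond the chromosome's end, against 15 in mm7, 5 in mm9 and 8 in mm10. The last probe lay between 93 bp (chromosome 9) and 58667 bp (chromosome 2) from the end of the sequence, and neighbouring probes had a median spacing of 5037 bp. The ends therefore reach close to the assembled tips, but the telomere repeats themselves carry no probe.

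The gene-rich ends were those of chromosomes 7, 15, 4, 9 and 2. The chromosome 7 end (chr7:140127176-145126226) lies almost wholly in band 7qF5, a light band with 19.7 protein-coding genes per Mb. Band density was counted in the GRCm38 annotation, since no mm8 gene table was used. 7qF5 holds Igf2, a growth factor gene, its imprinted neighbour H19, the cyclin gene Ccnd1, the apoptosis adaptor gene Fadd and Cd81, which encodes a tetraspanin of lymphocytes. The chromosome 15 end (chr15:98499851-103492478) spans several bands, with 38.8% of its probes in the last one, 15qF3, which has 18 genes per Mb and carries Hoxc8 of the Hoxc cluster. On chromosome 4 (chr4:150034657-155026362) all probes lie in the light band 4qE2, with 16.3 genes per Mb. This 8.56-Mb band holds the receptor genes Tnfrsf4, Tnfrsf18 and Tnfrsf9, which costimulate T cells, and the interferon-induced gene Isg15. The band is longer than the end, so a gene of it need not lie inside. Chromosome 9 (chr9:119000988-124000576) finishes in 9qF4, with 14.9 genes per Mb and a cluster of chemokine receptor genes that guide leukocyte migration: Ccr1, Ccr2, Ccr3, Ccr9, Cxcr6 and Xcr1. Chromosome 2 (chr2:177051882-181918095) finishes in 2qH4, with 13.6 genes per Mb, among them Rtel1, a helicase gene needed for telomere maintenance.

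At the other extreme was chromosome 17 (chr17:90185843-95174778), whose last band, 17qE5, has 0.714 genes per Mb. Chromosomes 18 (chr18:85730666-90721568), 3 (chr3:154876725-159870370) and 12 (chr12:115463967-120462092) also finish in gene-poor bands, with 2.55, 2.61 and 2.87 genes per Mb. Their bands carry Cd226, an activating receptor gene of T and NK cells, on chromosome 18, the Wnt secretion gene Wls on chromosome 3, and Vipr2, a neuropeptide receptor gene, on chromosome 12. The last bands of chromosomes 1, 5, 6, 8, 13 and 14 lay between, from 4.86 genes per Mb (14) to 7.79 (5). Giemsa staining separated the ends less sharply: only 4qE2, 7qF5 and 14qE5 are light bands, and the last bands of the other 12 chromosomes stain dark to some degree. Light bands covered 20.7% of the end probes, against 42.5% of the probes of the rest.

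Over the Ifng arrays, 11 of the 15 ends stood above the rest of their chromosomes and 3 stood below. Every value that follows is a deposited log ratio of Cy5 over Cy3, taken as log2, centred on each array's median over probes off the bait chromosome and averaged over the window. The mean over the 5 groups was tested with limma against the spread between replicates, over the 467 windows off the bait chromosomes, each minus the rest of its own chromosome, with adjusted p under 0.05. By that rule 32.8% of all windows were called higher and 40% lower, 72.8% in either direction. The 15 ends had a median difference of 0.042, against −0.0035 over all windows. These differences are small: 0.083 on the log2 scale was the most any end reached in the mean over the Ifng groups.

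On chromosome 4 the end minus the rest was 0.036 and 0.117 in 3T3-L1 cells, 0.058 and 0.053 in Stat4KO Th1 cells, −0.010 and 0.052 in Th1 cells, 0.17 and 0.10 in Th2 cells, and 0.085 and 0.16 in naïve cells. Only 1 of the 10 Ifng arrays, a Th1 array, was below 0, and the mean difference was 0.083 ± 0.010 (SE, limma adjusted p = 1.7e-05). The chromosome 7 end exceeded its rest in all 10 Ifng arrays, by 0.004 and 0.047 in 3T3-L1 cells, 0.056 and 0.049 in Stat4KO Th1 cells, 0.011 and 0.078 in Th1 cells, 0.087 and 0.096 in Th2 cells and 0.11 and 0.12 in naïve cells. Its mean difference was 0.065 ± 0.007 (SE, limma adjusted p = 1.1e-05). The chromosome 9 end, with its chemokine receptor band, was likewise above the rest in all 10 Ifng arrays, from 0.001 and 0.017 in Th1 cells to 0.082 and 0.11 in naïve cells.

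The remaining ends above their rest over the Ifng groups were those of chromosomes 2 (0.075), 15 (0.067), 5 (0.063), 8 (0.050), 1 (0.042), 6 (0.041), 14 (0.037) and 12 (0.030). Below the rest were the ends of chromosomes 17 (−0.035), 18 (−0.034) and 13 (−0.027). Only chromosome 3, at −0.0095, missed the threshold (limma adjusted p = 0.13). These means run over cell types that differ. Leaving out both 3T3-L1 arrays, an alternative chosen after seeing the data, brought the chromosome 3 end to −0.030 (limma adjusted p = 0.0008). All 15 ends were then past the threshold, 11 above and 4 below. With all Ifng arrays 72.8% of all windows passed, and the share without the 3T3-L1 arrays is not given here, so this count has no background. Without the 3T3-L1 arrays the chromosome 1 end dropped to 0.020 and that of chromosome 17 to −0.057.

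The Il4 bait placed 6 ends above the rest and 4 below. Under the Il4 bait 24.8% of all windows were called higher and 33.6% lower (58.5% together), and the median of the ends was 0.017, against −0.0077 over all windows. Chromosome 4 led with chromosome 15: its end minus rest was 0.15 and 0.28 in Stat6KO Th2 cells, 0.061 and 0.12 in Th2 cells, 0.12 and 0.17 in Th1 cells and 0.004 and 0.22 in naïve cells. All 8 Il4 arrays were above 0, over a wide range, and the mean was 0.14 ± 0.025 (SE, limma adjusted p = 0.0040). For chromosome 15 the differences were 0.19 and 0.092 in Stat6KO Th2 cells, 0.090 and 0.13 in Th2 cells, 0.17 and 0.17 in Th1 cells and 0.063 and 0.23 in naïve cells, again above 0 in all 8 arrays, with a mean of 0.14 ± 0.019 (SE, limma adjusted p = 0.0023). The other 4 ends above the rest were those of chromosomes 7 and 9 (0.089 each), 8 (0.065) and 2 (0.061). In windows of 2 Mb the chromosome 8 end turned to −0.023 (limma adjusted p = 0.088).

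Below their rest under the Il4 bait were the ends of chromosomes 17 (−0.095), 18 (−0.068), 13 (−0.064) and 3 (−0.049). The gene-poor chromosome 17 end was below its rest in all 8 Il4 arrays, by −0.14 and −0.047 in Stat6KO Th2 cells, −0.046 and −0.083 in Th2 cells, −0.092 and −0.15 in Th1 cells and −0.038 and −0.17 in naïve cells. Chromosomes 1, 5, 6, 12 and 14, with means between −0.020 and 0.023, did not pass the test. Single arrays decided 3 of the Il4 calls: chromosome 13 was lost without the second Th1 or the second Th2 array, chromosome 18 without either of these or the first Stat6KO array, and chromosome 2 without any of 6 of the 8 arrays. The Ifng and Il4 tests were run in separate fits with no array in common.

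**Figure D1:**
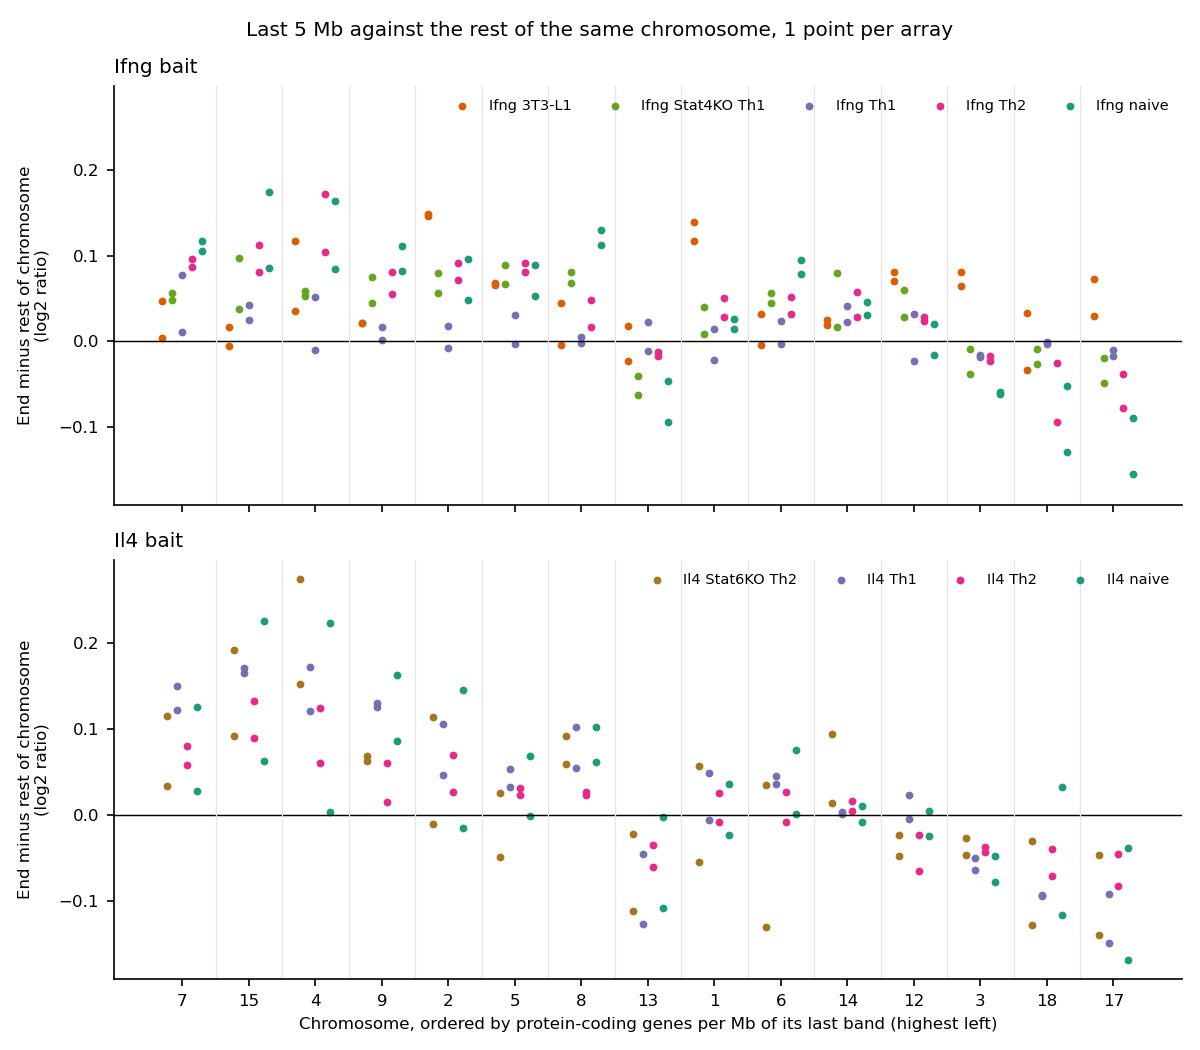
Each point is 1 array's mean log2 ratio of the last 5 Mb minus that of the rest of the same chromosome, for the 15 chromosomes, with groups in separate colours and the bait in separate panels. Chromosomes 7 and 9 lie above 0 in all 18 arrays, while chromosomes 3 and 17 lie below 0 in all 16 T cell arrays and above it in both 3T3-L1 arrays.

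The spread over all 16 T cell arrays of both baits was wide for the highest ends. The chromosome 15 end minus rest had a lowest value of 0.025, a median of 0.094 and a highest of 0.23, and the chromosome 4 end −0.010, 0.11 and 0.28. At the bottom, chromosome 17 had −0.17, −0.063 and −0.010, chromosome 3 had −0.078, −0.040 and −0.009, and chromosome 13 had −0.13, −0.043 and 0.022. The ends of chromosomes 7, 9 and 15 were above the rest in 16 of 16 T cell arrays, and those of chromosomes 3 and 17 below it in 16 of 16. Chromosome 12 was split evenly, with 8 arrays on each side of 0.

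Placed among the windows of its own chromosome, the chromosome 7 end was the highest of 29 windows in 6 of the 16 T cell arrays and among the highest 3 in 11. Chromosome 9 had its highest of 24 windows at the end in 5 arrays and among the top 3 in 11. The chromosome 15 end was among the highest 3 of 20 windows in 13 arrays and never below rank 5. The chromosome 17 end was the lowest of 19 windows in 6 T cell arrays and among the lowest 3 in 11, and the chromosome 18 end the lowest of 18 in 5 and among the lowest 3 in 9. High signal was not particular to the last 5 Mb on every chromosome. The end exceeded the next window, 5 to 10 Mb from the last probe, in 15 of 16 T cell arrays on chromosomes 7, 14 and 15. It did so in 13 on chromosome 6, 12 on 9, 10 on 1, 9 on 4 and 8 on 5. On chromosomes 2, 12 and 8 it did so in only 5, 1 and 0 arrays. For the low ends of chromosomes 3, 13, 17 and 18 the counts were 0, 1, 1 and 3.

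The size of this pattern differed between arrays. The SD over the 15 ends ranged from 0.018 in the first Ifng Th1 array to 0.12 in the second Il4 naïve array, and the SD over all windows moved with it, from 0.019 to 0.097 in the same 2 arrays. Against the mean of the other T cell arrays, the 15 values of an array had r from 0.90 to 0.98 in 11 of the 16 T cell arrays (15 ends, all arrays on 1 probe set). The exceptions were the first (r = 0.14) and the second (r = 0.73) Ifng Th1 array and the second Stat4KO array (r = 0.70). The others were the first Il4 naïve array (r = 0.53) and the second Stat6KO array (r = 0.55). The 3T3-L1 arrays had r = −0.27 and 0.36 with the T cell mean. Agreement was not limited to the ends. Between the Il4 Th1 and Th2 group means r was 0.95 over the ends and 0.93 over all 467 windows. Between the Ifng Th1 and Th2 group means it was 0.70 and 0.34. The second Stat6KO array stood apart in single ends: its chromosome 6 end was −0.13 from the rest, where the other 15 T cell arrays lay between −0.008 and 0.095, and its chromosome 4 end was 0.28.

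The 2 Ifng Th1 arrays correlated with each other at r = 0.015 over the 15 ends, against 0.71 for 3T3-L1, 0.77 for Stat4KO Th1, 0.93 for Th2 and 0.95 for naïve cells. Among the Il4 groups the replicate r was 0.54 for Stat6KO Th2, 0.94 for Th2, 0.94 for Th1 and 0.54 for naïve cells. In 7 of the 9 pairs, over 99% of the sorted values of the 2 arrays were equal within 0.011, and in the Ifng Th1 pair 42.8% and the Il4 Th2 pair 10.8% were. Over the 467 windows off the bait chromosomes the second Ifng Th1 array had r = 0.12 with its own replicate and 0.65 with the second Il4 Th2 array, and the first had 0.30 with the first Il4 naïve array. The labels were kept as given. Results that use Ifng Th1 arrays are therefore given below with and without single arrays where these change a call.

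In the group means, the end minus rest followed the gene density of the last band in every T cell group. Over the 15 chromosomes the Spearman rho was 0.69 in Stat4KO Th1, 0.73 in Th1, 0.89 in Th2 and 0.85 in naïve cells with the Ifng bait. With the Il4 bait it was 0.81 in Stat6KO Th2, 0.91 in Th2, 0.92 in Th1 and 0.86 in naïve cells. In 3T3-L1 cells it was 0.043. The Ifng Th1 value describes the mean of 2 arrays that correlated with each other at r = 0.015 over these ends. Their r with the mean of the other T cell arrays was 0.14 and 0.73. No rho was taken for single arrays. These coefficients describe 15 points that share the arrays and the probe set, and the band is only a stand-in for the last 5 Mb, since 5 of the 15 ends reach past their last band. The difference in probe density between end and rest had rho between −0.31 and 0.018 with the same values. The share of light bands in the end had rho between −0.19 (3T3-L1) and 0.74 (Ifng Th1).

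**Figure D2:**
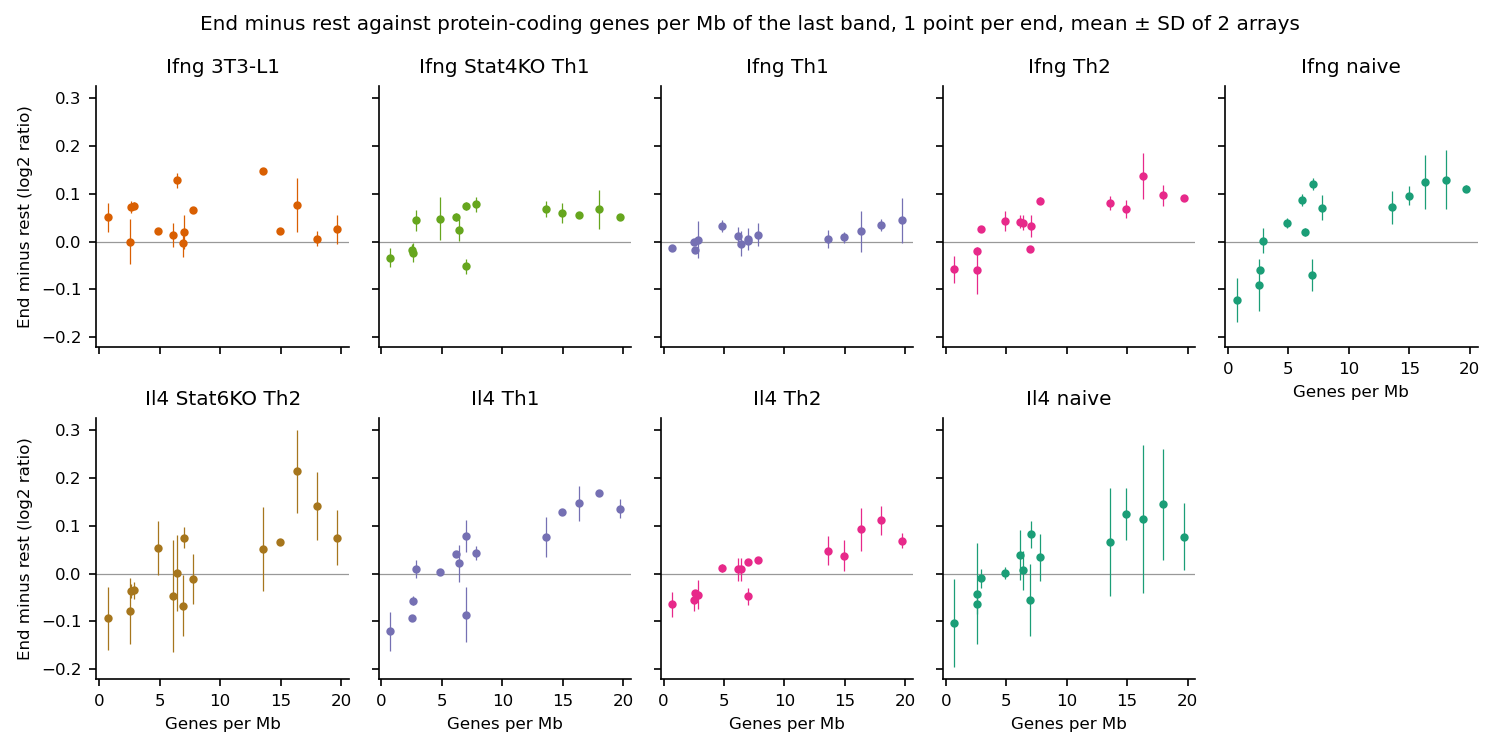
Each point is 1 chromosome: the horizontal axis gives protein-coding genes per Mb of the last band (GRCm38 annotation) and the vertical axis the group mean of end minus rest on the log2 scale, with bars of 1 SD of 2 arrays and 1 panel per group. Points climb to the right in all 8 T cell panels, and the 3T3-L1 panel, with a Spearman rho of 0.043, shows no such order.

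Under the Ifng bait 6 ends differed between 3T3-L1 cells and T cells. Higher in the fibroblast line were the gene-poor ends of chromosomes 3, 12 and 17. So were the gene-rich chromosome 2 end (13.6 genes per Mb) and the chromosome 1 end (6.41). The gene-poor chromosome 18 end, with 0.078 and 0.012 in 3T3-L1 cells against −0.099 to 0.041 in the 6 T cell arrays, did not pass. The mean of the 2 3T3-L1 arrays was set against the mean of Th1, Th2 and naïve cells. In this comparison 5 ends were higher and 1 lower with limma, where 11.8% of all 516 windows were called higher and 6.98% lower. The ends had a median difference of 0.016, against 0.0088 over all windows. Both 3T3-L1 arrays also carry a T cell characteristic in the labels while their titles name the cell line, and contacts alone cannot check the identity of the cells.

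The chromosome 1 end (chr1:192067021-197063401, band 1qH6, with the complement receptor gene Cr2 near its tip) had log2 ratios of 0.17 and 0.19 in 3T3-L1 cells, against 0.022 and 0.052 in Th1, 0.070 and 0.089 in Th2 and 0.031 and 0.034 in naïve cells. Both 3T3-L1 values lay above all 6 T cell values, and the difference was 0.13 ± 0.015 (SE, limma adjusted p = 0.0002). The chromosome 17 end had 0.12 and 0.089 in 3T3-L1 cells, against 0.031 and 0.025 in Th1, −0.010 and 0.027 in Th2 and −0.033 and −0.099 in naïve cells. Again the groups did not overlap, and the difference was 0.11 ± 0.020 (SE, limma adjusted p = 0.0032). On chromosome 3 the end had 0.11 and 0.080 in 3T3-L1 cells, against 0.037 and 0.015 in Th1, 0.014 and 0.012 in Th2 and −0.053 and −0.062 in naïve cells, a difference of 0.10 ± 0.014 (SE, limma adjusted p = 0.0008).

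The chromosome 2 end had 0.19 and 0.20 in 3T3-L1 cells, against 0.038 and 0.053 in Th1, 0.15 and 0.12 in Th2 and 0.083 and 0.14 in naïve cells (difference 0.099 ± 0.017 SE, limma adjusted p = 0.0036). Among these T cell groups Th2 cells came closest to the 3T3-L1 level without reaching it. Stat4KO Th1 cells, which are not part of this comparison, had 0.12 and 0.15. The chromosome 12 end had 0.13 and 0.14 in 3T3-L1 cells, against 0.083 and 0.011 in Th1, 0.077 and 0.079 in Th2 and 0.021 and 0.050 in naïve cells (difference 0.079 ± 0.020 SE, limma adjusted p = 0.023). Chromosome 15, among the highest ends in T cells, was lower: 0.033 and 0.053 in 3T3-L1 cells, against 0.071 and 0.077 in Th1, 0.16 and 0.12 in Th2 and 0.13 and 0.22 in naïve cells (difference −0.086 ± 0.023 SE, limma adjusted p = 0.031). None of these 6 ends overlapped between the 2 3T3-L1 and the 6 T cell arrays, and the other 9 ends did, where 23.3% of all windows did not overlap.

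The count rested in part on single arrays. It was 3 without the first 3T3-L1 array, and chromosome 12 was lost without either 3T3-L1 array. Chromosome 15 was lost without either 3T3-L1 array, either Th1 array or the first Th2 array. With the probe median in place of the mean, chromosome 2 differed by 0.017 (limma adjusted p = 0.64) and chromosome 15 by −0.058 (limma adjusted p = 0.072), and neither passed. Without both Ifng Th1 arrays, an alternative chosen after seeing the data, 8 ends passed, 5 higher and 3 lower, and chromosome 15 then differed by −0.11. The share of all windows called without these arrays is not given here. The arrays fall into 5 series by the leading digits of their serial numbers. Each 3T3-L1 array lies in a series of its own, so array series and cell type cannot be told apart.

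Within their chromosomes the 5 higher ends ranked near the top in 3T3-L1 cells. The chromosome 3 end was the highest of 31 windows in both 3T3-L1 arrays, against ranks 17 to 31 in the 16 T cell arrays. Chromosome 17 had its end at ranks 1 and 2 of 19 in 3T3-L1 cells, against 12 to 19 in T cells. The chromosome 2 end was the highest of 36 in both 3T3-L1 arrays, against ranks 4 to 24 in T cells. The chromosome 12 end ranked 1 and 2 of 24 in the 3T3-L1 arrays, against 1 to 22 in T cells, and the chromosome 1 end 3 and 2 of 39, against 3 to 38, so that the ranks of both overlapped between the groups. On chromosome 1 the window next to it, 5 to 10 Mb from the last probe, was higher still, at 0.22 and 0.28 in the 3T3-L1 arrays. On chromosome 1 the high signal thus extended inward beyond the last 5 Mb.

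At 500-kb resolution, 34 of the 148 end bins differed among the 5 Ifng groups by limma's F test, where 16.8% of all 5016 bins were called. Chromosome 12 held 6 of them, chromosome 2 held 5, chromosome 6 held 4, and chromosomes 1 and 17 held 3 each. Without either 3T3-L1 array the count was 11, without the second naïve array 21 and without the second Th1 array 22. It was 12 with the probe median and 18 with MAD scaling (each array divided by the median absolute deviation of its bins). With array series as a block differences can be tested among Th1, Th2 and naïve cells only, and 0 end bins then passed. The bin with the smallest p was chr1:192067021-192557039, the innermost of its end, with 88 probes. Its log2 ratio was 0.39 and 0.45 in 3T3-L1 cells, 0.046 and −0.0064 in Stat4KO Th1, 0.00097 and 0.086 in Th1, 0.13 and 0.059 in Th2 and 0.079 and 0.042 in naïve cells (limma F test adjusted p = 7.4e-05). Both 3T3-L1 arrays were far above all 8 T cell arrays. Next came chr2:178921657-179411008, with 0.44 and 0.32 in 3T3-L1 cells against −0.027 to 0.082 over the 8 T cell arrays, and chr1:195563954-196062851, with 0.34 and 0.30 against −0.042 to 0.070.

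Inside the ends the 3T3-L1 signal was patchy. Over all ends both 3T3-L1 arrays exceeded all 8 Ifng T cell arrays in 25 of 148 bins and lay below all 8 in 11, where 8.09% of all 5016 bins lay above and 7.02% below. They were above in 4 of 10 bins on chromosome 1, 4 of 8 on chromosome 2, 4 of 10 on chromosome 3 and 3 of 10 each on chromosomes 12 and 17. On chromosome 15 both lay below all 8 in 5 of 10 bins. Chromosome 6 had 2 bins above and 2 below, and each of the other ends had at most 1 in either direction. The chromosome 2 end split into 2 parts in 3T3-L1 cells: the last 2 Mb differed from the rest by 0.019 and 0.00063, and the stretch from 2 to 5 Mb by 0.27 and 0.30. With windows of 2 Mb in place of 5 Mb the chromosome 2 difference from T cells was accordingly −0.061 (limma adjusted p = 0.053), opposite in sign to the 5-Mb value.

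**Figure D3:**
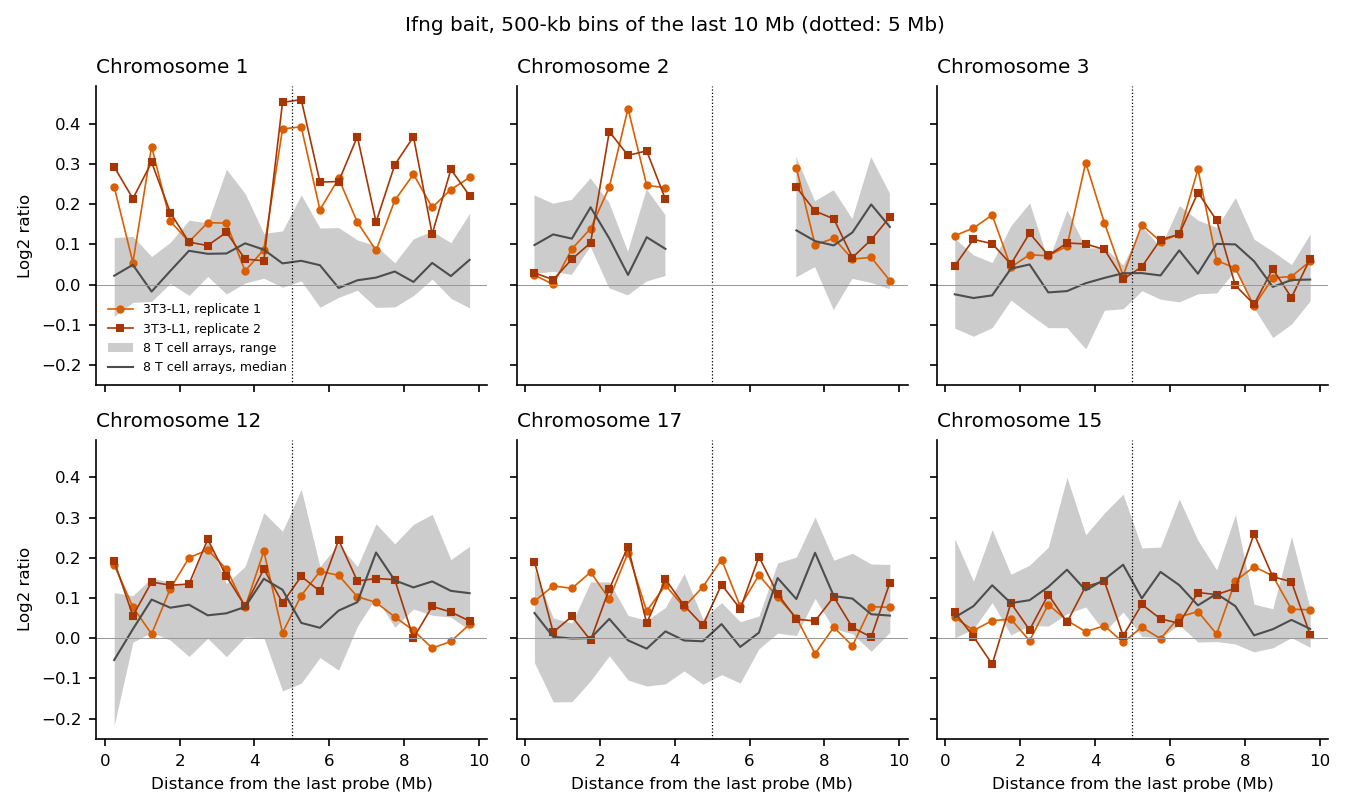
Log2 ratio in 500-kb bins over the last 10 Mb of 6 chromosomes, plotted against distance from the last probe; lines give the 2 3T3-L1 arrays, and the band and line give the range and median of the 8 Ifng T cell arrays. The 3T3-L1 lines leave the T cell range in separate stretches, as on chromosome 2 between 2 and 5 Mb, and lie below it over much of the chromosome 15 end.

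The outermost stretch carried less signal than the one next to it. Averaged over the 15 ends, the last 2 Mb lay below the stretch from 2 to 5 Mb in 16 of 18 arrays, by as much as −0.066 in the second Ifng naïve array. The exceptions were the first Ifng Th1 array (0.0025) and the second Stat4KO array (0.0040). In the first Mb from the last probe the group means of the difference from the rest ran only from −0.013 to 0.034.

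The difference between both stretches varied from chromosome to chromosome. Over the 18 arrays the last 2 Mb minus the 2 to 5 Mb stretch had a lowest value of −0.21, a median of −0.10 and a highest of 0.060 on chromosome 8, and of −0.18, −0.080 and 0.050 on chromosome 14, and was below 0 in 16 and 17 of 18 arrays. On chromosomes 1, 9, 12 and 15 the medians were between −0.047 and −0.044. Chromosome 4 ran the other way, with a median of 0.066 and only 2 of 18 arrays below 0, as did chromosomes 2 (0.037) and 18 (0.029), with 4 of 18 below 0 each. On chromosome 17 the low signal was even across the end, with a median of −0.0023. The highest 500-kb bin of any end over the 8 Ifng T cell arrays was on chromosome 4 within 1 Mb of the last probe (chr4:154034037-154513904), at 0.22 ± 0.096 (SD over 8 arrays), and it was also the highest over the 8 Il4 arrays, at 0.25 ± 0.10. The lowest under both baits was the outermost bin of chromosome 12 (chr12:119966624-120462092), at −0.049 ± 0.10 with Ifng and −0.10 ± 0.11 with Il4.

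**Figure D4:**
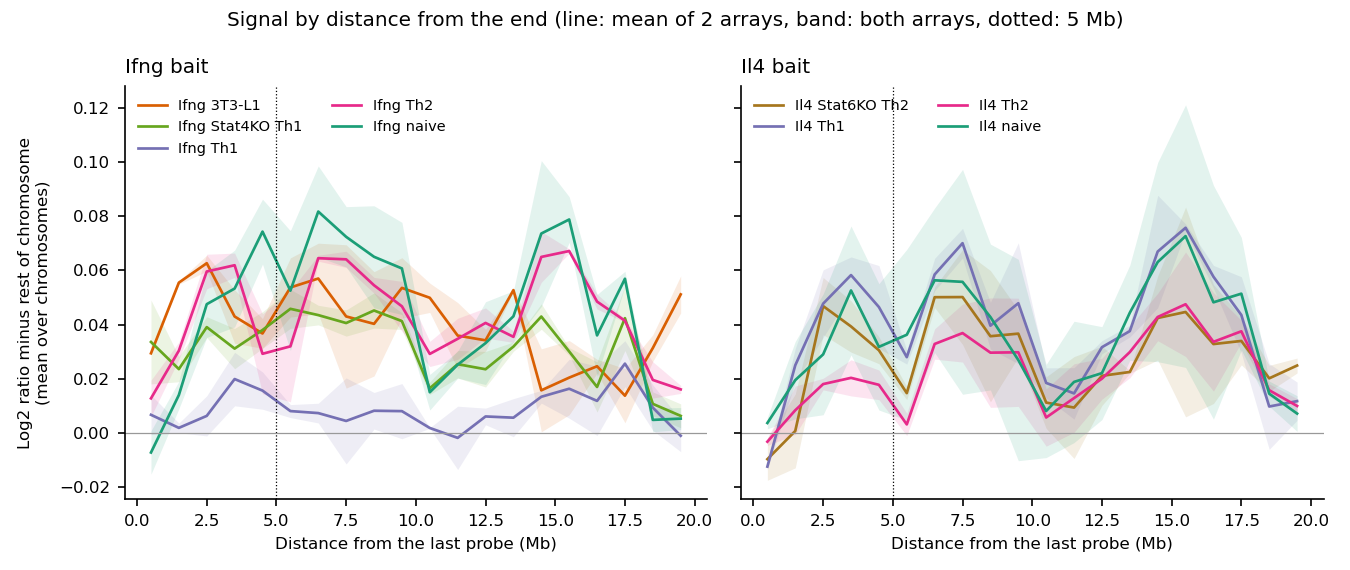
Mean log2 ratio minus the rest of the chromosome in 1-Mb steps over the last 20 Mb, averaged over the 15 chromosomes (14 where chromosome 2 has a gap in probes), with 1 line per group for the mean of 2 arrays and a band between the 2 arrays. In Ifng Th2 and naïve cells and in all 4 Il4 groups the last Mb is the lowest step. In Ifng 3T3-L1, Stat4KO Th1 and Th1 cells the lowest step lies more than 10 Mb inward.

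In 5-Mb windows the telomere-proximal end stood above the centromere-proximal end on most chromosomes under both baits. Windows of 2 Mb, given below, called fewer. The last minus the first 5 Mb was higher for 12 of the 15 chromosomes with the Ifng bait and lower for 2, where 72.2% of all 18 tested were higher and 22.2% lower (94.4% together). The 15 had a median of 0.066, against 0.050 over the 18. The largest Ifng differences were 0.10 ± 0.010 on chromosome 5, 0.094 ± 0.011 on chromosome 9 and 0.094 ± 0.012 on chromosome 4 (SE). Chromosomes 17 (−0.045) and 18 (−0.052) had the lower telomere-proximal end, and chromosome 13 did not pass (limma adjusted p = 0.26). With the Il4 bait 9 were higher and 2 lower, where 55.6% of all 18 were higher and 22.2% lower (77.8% together). The largest were chromosomes 4 (0.19 ± 0.026), 9 (0.17 ± 0.023) and 15 (0.16 ± 0.021), and the 2 lower ones were again 17 (−0.10) and 18 (−0.088). In windows of 2 Mb the counts were 7 higher and 1 lower with the Ifng bait and 4 higher and 3 lower with the Il4 bait, and the chromosome 8 difference under the Il4 bait turned to −0.077 (limma adjusted p = 0.0055). The shares called among the 15 are close to those among all 18 chromosomes, of which the 15 are the larger part.

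Between Th1 and naïve cells 9 of the 15 ends changed under the Ifng bait, those of chromosomes 3, 13, 17 and 18 upward and those of 2, 6, 8, 9 and 15 downward. With limma 4 ends were thus higher and 5 lower, where 28.7% of all 516 windows were called higher and 16.5% lower (45.2% together). The ends had a median change of −0.047, against 0.011 over all windows. The first Ifng Th1 array, with its SD over the ends of 0.018, is one of 2 arrays behind every value here.

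The chromosome 8 end, whose last band holds the integrin gene Itgb1 and the neuropilin gene Nrp1, had 0.046 and 0.034 in Th1 cells, against 0.13 and 0.16 in naïve cells. Both Th1 arrays were below both naïve arrays, and the change was −0.11 ± 0.023 (SE, limma adjusted p = 0.0078). The chromosome 9 end had 0.042 and 0.060 in Th1 cells, against 0.12 and 0.17 in naïve cells, a change of −0.094 ± 0.021 (SE, limma adjusted p = 0.0083). Chromosomes 15 (−0.10), 2 (−0.064) and 6 (−0.052) also fell.

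On the gene-poor side, the chromosome 3 end had 0.037 and 0.015 in Th1 cells, against −0.053 and −0.062 in naïve cells, and the change was 0.083 ± 0.018 (SE, limma adjusted p = 0.0074). The chromosome 17 end had 0.031 and 0.025 in Th1 cells, against −0.033 and −0.099 in naïve cells, a change of 0.094 ± 0.024 (SE, limma adjusted p = 0.013). The gene-poor chromosome 18 end (0.098) also rose, and the gene-poor chromosome 12 end was not called. Chromosome 13 (0.067) rose too, but its last band is not gene-poor, with 6.96 genes per Mb. That of chromosome 6, which fell, has 6.14. With 2 arrays a group, Th1 and naïve arrays did not overlap in 13 of the 15 ends, these 9 included, and in 80.4% of all windows, a share close to that of the ends.

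This result depended on the scale and on single arrays. Scaled to a common spread (median absolute deviation of the 500-kb bins, MAD, which was 0.032 and 0.033 in the Th1 arrays against 0.059 and 0.085 in the naïve arrays), 5 ends were higher and 0 lower, against 4 and 5 without scaling. Quantile normalisation gave 2 higher and 5 lower, and the probe median 3 and 7. With array series as a block 2 ends were higher and 3 lower, 4 of them among the 9. Without the second naïve array or without the first Th1 array no end passed. Within the 1 array series that holds both groups, the first Th1 array was below the mean of both naïve arrays by −0.10 on chromosome 8 and above it by 0.094 on chromosome 3.

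**Figure D5:**
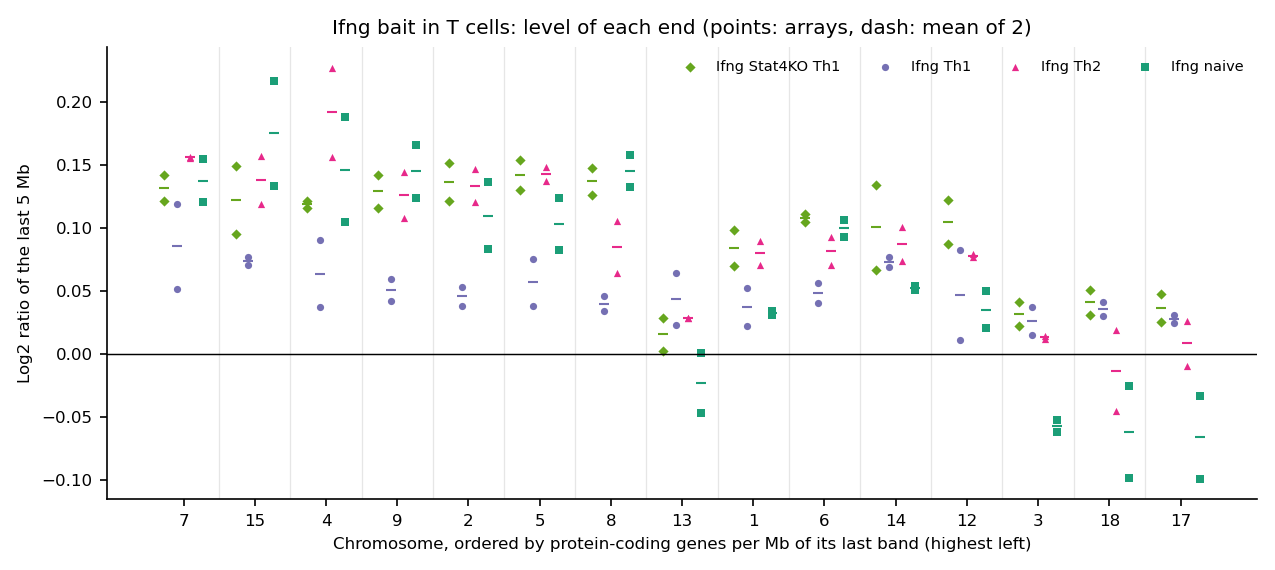
Log2 ratio of each end in the 8 Ifng T cell arrays, 2 points per group, for the 15 chromosomes. The Th1 arrays lie between 0.011 and 0.12 on all ends, while the naïve arrays span −0.099 to 0.22.

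Between Th2 and naïve cells 1 end passed under the Ifng bait, that of chromosome 3, where 11% of all windows did (5.04% higher and 6.01% lower). It had 0.014 and 0.012 in Th2 cells, against −0.053 and −0.062 in naïve cells, a change of 0.071 (limma adjusted p = 0.041). It did not pass without either naïve array or either Th2 array. Both naïve arrays lie in 1 array series and both Th2 arrays in another, and no end passed with the series as a block. The other 14 ends did not pass. Of the 15, 5 had an unadjusted limma p under 0.05, as did 190 of all 516 windows.

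Th1 against Th2 gave no call among the ends with limma, where 3.1% of all windows passed. The unadjusted p was under 0.05 for 7 ends, all lower in Th1 cells. The same held for 140 of all 516 windows, 111 lower and 29 higher. The smallest adjusted p were those of chromosome 5, with 0.076 and 0.038 in Th1 cells against 0.15 and 0.14 in Th2 cells (−0.086, limma adjusted p = 0.053), and chromosome 2, with 0.038 and 0.053 in Th1 against 0.15 and 0.12 in Th2 cells (−0.088, limma adjusted p = 0.055). With the probe median in place of the mean, 9 ends passed, 3 higher and 6 lower. The share of all windows called with the probe median is not given here, so this count cannot be set against it.

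In Stat4KO Th1 cells 3 ends were higher than in wild-type Th1 cells under the Ifng bait, where 4.65% of all windows were called, all of them higher. The median change of the 15 ends was 0.049, against 0.032 over all windows. The chromosome 8 end had 0.15 and 0.13 in Stat4KO Th1 cells, against 0.046 and 0.034 in Th1 cells (0.097 ± 0.023 SE, limma adjusted p = 0.043). On chromosome 2 the values were 0.12 and 0.15 in Stat4KO Th1 cells, against 0.038 and 0.053 in Th1 cells (0.091 ± 0.021 SE, limma adjusted p = 0.045). Chromosome 5, whose last band holds the cytokine receptor gene Flt3 and the DNA repair gene Brca2, had 0.13 and 0.15 in Stat4KO Th1 cells, against 0.076 and 0.038 in Th1 cells (0.085 ± 0.020 SE, limma adjusted p = 0.045). The 2 Th1 arrays lay below both Stat4KO arrays on all 3, where 68.8% of all windows did not overlap. No end passed without the first or the second Th1 array or without the second Stat4KO array, and none with quantile normalisation, MAD scaling or the rest of the chromosome subtracted. The Stat4KO arrays lie in an array series without wild-type arrays, so array series and genotype cannot be told apart.

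The Il4 groups did not separate at any end. Th1 against naïve cells gave 0 calls with limma over the ends and 0% over all windows. At an unadjusted p under 0.05 were 1 end and 36 of all 516 windows. That end was chromosome 7, with 0.19 and 0.23 in Th1 cells against 0.020 and 0.16 in naïve cells (0.12, limma adjusted p = 0.49). Next came chromosome 12, with 0.086 and 0.049 in Th1 cells against 0.033 and −0.0038 in naïve cells. Th2 against naïve cells gave 0 ends, where 2.33% of all windows were called. At an unadjusted p under 0.05 there were 0 ends and 22 of all 516 windows. The smallest p were those of chromosomes 9 (−0.080) and 3 (0.038), both at a limma adjusted p of 0.96. Th2 against Th1 cells gave 0 of 15 ends and 0% of windows. An unadjusted p under 0.05 was found for 3 ends and 36 of all 516 windows. The clearest was chromosome 9, with 0.039 and 0.11 in Th2 cells against 0.21 and 0.21 in Th1 cells (−0.13, limma adjusted p = 0.50). Chromosome 12 followed, with −0.0039 and −0.037 in Th2 cells against 0.086 and 0.049 in Th1 cells (limma adjusted p = 0.63). At both ends the Th2 and Th1 arrays did not overlap, as in 60.9% of all windows.

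Stat6KO Th2 against wild-type Th2 cells gave 0 ends and 0% of windows with limma. The unadjusted p was under 0.05 for 2 ends, chromosomes 8 and 14, and for 57 of all 516 windows. The chromosome 8 end had 0.16 and 0.13 in Stat6KO Th2 cells, against 0.041 and 0.069 in Th2 cells (0.088, limma adjusted p = 0.41). The chromosome 14 end had 0.058 and 0.21 in Stat6KO Th2 cells, against 0.011 and 0.037 in Th2 cells, and its height rested on the second Stat6KO array. The Stat6KO arrays share the series of the Stat4KO arrays, apart from all wild-type arrays, so series and genotype cannot be told apart here either. In 500-kb bins 0 of 148 end bins passed the F test over the Il4 groups, where 1.54% of all bins passed. The unadjusted p was under 0.05 for 9 end bins and for 419 of all 5016 bins. The end bin with the smallest p was on chromosome 9 (chr9:123005055-123493341), with 0.15 and 0.20 in Stat6KO Th2, 0.031 and −0.071 in Th2, 0.31 and 0.21 in Th1 and 0.14 and 0.17 in naïve cells (limma F test adjusted p = 0.19). Another chromosome 9 bin (chr9:121512916-121999498, adjusted p = 0.43) and the innermost bin of the chromosome 7 end (chr7:140127176-140615973, adjusted p = 0.44) came next by limma's F test.

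The Ifng and Il4 baits met the ends at levels that the test did not separate. Over the naïve, Th1 and Th2 groups 0 of 15 ends differed between baits with limma, and 0% of all 467 windows. The unadjusted p was under 0.05 for 3 ends and for 37 of all windows. The chromosome 3 end had the smallest p, with −0.062 to 0.037 over the 6 Ifng arrays and −0.11 to −0.014 over the 6 Il4 arrays of these groups (difference 0.038, limma adjusted p = 0.42). Chromosome 12 came next, at 0.033 (limma adjusted p = 0.56). Without the first Il4 naïve array 2 ends passed, chromosome 3 among them.

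The change between Th1 and naïve cells itself differed between the baits at 1 end, that of chromosome 8, where 2.57% of all windows passed. Its Il4 values were 0.12 and 0.16 in Th1 cells against 0.068 and 0.12 in naïve cells, beside the lower Th1 values under the Ifng bait given above. The difference of the 2 changes was −0.15 ± 0.037 (SE, limma adjusted p = 0.042). For 5 ends and 122 of all 467 windows the unadjusted p was under 0.05. No end passed under the other settings tried or with any other array left out, and without the second Il4 naïve array 9 did. The same test for Th2 against naïve cells gave 0 ends and 0% of all windows. At an unadjusted p under 0.05 there were 0 ends and 11 of all 467 windows. The smallest p of an end was that of chromosome 12 (0.078, limma adjusted p = 0.98), followed by chromosome 9 (0.061).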

How the data were processed

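The deposited files hold 1 log ratio per probe and array, Cy5 (4C DNA) over Cy3 (HindIII- and Csp6I-cut genomic DNA), for 384942 probes, per the labels' protocols. The authors' values were taken as log2. Neither the log base nor the genome build, the scanner's software, or any filter or background correction is given in the sources used here. The protocol in the labels describes adherent cells and other baits (Lcn2, Arrdc2, Anxa5), so its details may not hold for these samples. Sorted values that are equal within 0.011 in 7 of 9 replicate pairs point to a step done within pairs before deposit. The p-values measure the spread between arrays after any such step, and its effect on that spread was not tested.

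Each array was centred on its median over probes off the bait chromosome, and windows with probes closer than 1 Mb to the bait were not tested, nor was chromosome Y. Means were taken over 5-Mb windows with at least 200 probes and 500-kb bins with at least 20, counted from the last probe. limma 3.58.1 (R 4.3.3; lmFit and eBayes) was fitted on all windows or bins with both arrays of each group, in 1 fit per bait for comparisons within a bait, and p-values were adjusted by Benjamini-Hochberg over all of them at 0.05. Where the text says end against rest, the mean over groups was tested after subtracting the rest of the chromosome. The scripts were tested on simulated data. Cytogenetic bands of mm8 came from circlize 0.4.16, and genes from the RefSeq annotation of GRCm38, placed in the bands of mm10 from the same package, at least 0.5 Mb inside the band for the density. Coordinates are mm8 as inferred from the probe positions. Tables and plots were made with Python 3.11.15, numpy 2.4.6, pandas 2.3.3 and matplotlib 3.10.9.

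The ends, the named landmark genes and the comparisons were chosen with earlier results of these data known. By rule, all 15 ends are given against the rest, up to 5 called ends per direction are named in each comparison, the 2 ends with the smallest p where none was called, and the 3 end bins with the smallest F-test p per bait. Alternatives were 2-Mb windows, the probe median, scaling by the MAD, quantile normalisation, eBayes with trend and robust settings, replicate number or array series as a block, the rest of the chromosome subtracted, the rest without its first 5 Mb, and leaving out each array. Counts of ends or bins under the alternatives are given without the share of all windows or bins called under the same setting. They are therefore not set against a background. With 2 arrays per group and log ratios in place of counts, the number of arrays limits the precision.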

Additional observations from a re-analysis of the deposited data

Results flagged for a closer look

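At 8 places 2 groups' effects under the same contrast differed by a test of the difference itself. In 7 of them the end minus the rest of its chromosome differed between 3T3-L1 cells and the Th1, Th2 and naïve T cells of the Ifng bait, where 24% of all 516 windows did (11.2% higher and 12.8% lower). The difference was 0.12 ± 0.020 on chromosome 17 (SE, limma adjusted p = 0.0026), 0.11 ± 0.016 on chromosome 1 (limma adjusted p = 0.0009) and 0.10 ± 0.014 on chromosome 3 (limma adjusted p = 0.0004). It was 0.095 on chromosome 2 and 0.065 on chromosome 12. Chromosomes 15 (−0.081) and 7 (−0.057) were lower against their rest in 3T3-L1 cells. Chromosome 7, with 0.004 and 0.047 in the 3T3-L1 arrays against 0.011 to 0.12 in the 6 T cell arrays, overlapped between the groups. Array series and cell type cannot be told apart in any of these.

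The change between Th1 and naïve cells differed between the Ifng and Il4 baits at the chromosome 8 end, by −0.15 ± 0.037 (SE, limma adjusted p = 0.042). Ifng levels were 0.046 and 0.034 in Th1 against 0.13 and 0.16 in naïve cells, and Il4 levels 0.12 and 0.16 in Th1 against 0.068 and 0.12 in naïve cells. The Ifng Th1 arrays had a small spread over all windows. With each array scaled by its MAD 0 ends passed this test, and 0 passed under the other settings tried. The part of the small spread in this result was not tested further.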

How the results depend on the processing

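Of the single-end values recomputed under all alternatives, 1067 kept their direction and side of the threshold, 126 lost the call, 11 gained one and 15 changed sign. With 2-Mb windows 9 Ifng ends differed from the rest (14 with 5 Mb), 8 Ifng and 7 Il4 ends from the first window (14 and 11), 1 end between Th1 and Th2 (0), 1 between Stat4KO Th1 and Th1 (3) and 0 in the Th1 interaction of the baits (1). Sign changes in these shorter windows were Ifng end minus rest on chromosome 14 (−0.011); Il4 end minus rest on chromosomes 1 (−0.018), 5 (−0.0090), 6 (−0.021), 8 (−0.023) and 14 (−0.052); Il4 last minus first on chromosome 8 (−0.077); Ifng Th1 minus naïve on chromosome 6 (0.025); 3T3-L1 minus T cells on chromosome 2 (−0.061); and Il4 Th1 minus naïve on chromosome 12 (−0.0011). The windows then hold the last 2 Mb only; the cause was not tested.

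With the probe median the counts were 0 for Th2 minus naïve, 9 for Th1 minus Th2, 0 for Stat4KO Th1 minus Th1, 0 for the interaction and 12 bins for the Ifng F test (34). Chromosome 12 turned to −0.010 in Il4 Th1 minus naïve and to −0.00083 between baits. MAD scaling gave 5 ends for Th1 minus naïve (9; 5 higher and 0 lower), with chromosome 6 at 0.074 in MAD units, 0 for Th2 minus naïve, 0 for Stat4KO, 0 for the interaction and 18 bins. Quantile normalisation gave 0 for Th2 minus naïve, Stat4KO and the interaction. Trend and robust settings gave 2, 1 and 0 for the same 3. Array series as a block gave 5 for Th1 minus naïve, 0 for Th2 minus naïve, 0 for the interaction and 0 bins, in a test among Th1, Th2 and naïve cells only; it could not be fitted for Stat4KO, Stat6KO and 3T3-L1. Subtracting the rest gave 0 for Stat4KO and 0 for the interaction. The cause of these moves was not tested.

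Leaving out 1 array gave 14 Ifng ends in each case and 7 to 11 Il4 ends against the rest, 13 to 14 Ifng and 8 to 12 Il4 ends against the first window, 0 to 10 for Ifng Th1 minus naïve, 0 to 1 for Th2 minus naïve, 0 to 2 for Stat4KO, 3 to 6 for 3T3-L1, 0 to 2 between baits, 0 to 9 for the interaction and 11 to 37 bins. It gave 0 throughout for Th1 minus Th2 and all Il4 comparisons. Without the first or the second Stat6KO array, the Il4 end minus rest was −0.0043 or 0.024 on chromosome 1 and −0.010 or 0.031 on chromosome 6.

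The deviations of same-numbered arrays correlated positively in some pairs of groups and negatively in others. With the Ifng bait r was 0.54 to 0.68 among 3T3-L1, Th1 and naïve cells and 0.22 between Stat4KO Th1 and Th2 cells, and −0.54 to −0.25 between these sets. With the Il4 bait it was 0.35 to 0.63 among Th2, Th1 and naïve cells and −0.50 to −0.28 between Stat6KO Th2 and these. The labels tie no number to an animal or day, so the numbers were not taken to pair the arrays. With the replicate number as a block 0 ends passed for Stat4KO Th1 minus Th1, 0 in the interaction, 8 for Th1 minus naïve and 5 for 3T3-L1 minus T cells.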
